A study of Mus musculus with 15 samples.

Results

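The genes described here are the solute carriers outside the SLC22 family, membrane proteins that move solutes across the surface of the cell and of its organelles. A gene counted as a member when its symbol in the array annotation starts with Slc and a digit, other than Slc22a, and a probe of it was above background (detection p under 0.01) in at least 2 samples. Of 335 such symbols on the array, 241 passed, among 11648 genes measured in all, and 94 did not, among them 12 of the SLC25 family and 7 of the SLC6 family. The members just inside that limit, with exactly 2 samples above background, included Slc20a2 and Slc27a5. The 241 members fall into 47 families, of which the mitochondrial SLC25 family (34 members) and the SLC35 family of nucleotide sugar carriers (21 members) are the largest. Of these symbols Slc4a1ap, Slc7a6os, Slc9a3r1 and Slc9a3r2 belong to proteins named after a carrier that carry nothing themselves, and they are kept as a class of their own.

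Expression was measured on Illumina mouse arrays in kidneys and lungs of BALB/c mice, in a series whose title concerns organ differences between blood vessels and metastasis. The groups were kidney from mice whose ureter was tied off on 1 side (unilateral ureteral obstruction, UUO; n = 2), healthy kidney (n = 3), fibrotic lung after intratracheal bleomycin (n = 3), the lung of mice with UUO (n = 3) and healthy lung (n = 3). Both injuries are models of fibrosis, a whole organ was sampled, and no transgene or Cre is named in the labels. The labels name an animal for every sample. Of these mice 4 are represented by a lung as well as a kidney, 1 lung of a UUO mouse was measured on 2 arrays that were averaged, and 1 healthy kidney carries lung in its tissue field, where title and source name were followed. That sample had the kidney's levels, such as 15.08 for the renal carrier Slc34a1.

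Solute carriers set what enters and leaves a cell. In the kidney, carriers on the luminal side of the proximal tubule reclaim phosphate, glucose, amino acids and dicarboxylic acids from the filtrate, and those of the thick ascending limb and distal tubule reclaim salt. In the lung, carriers of alveolar and airway epithelium handle phosphate and chloride, those of endothelium take up nucleosides and amines, and those of phagocytes act in lysosomes and phagosomes.

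Levels are normalized log2 signals, on which a probe that sees nothing lies near 4.5, and the level of one probe cannot be set against that of another. A probe is called at background in a group when its detection p was 0.05 or more in every sample, and folds against such a group are lower bounds, written "at least". Changes are given as log2 differences with their SE, fitted with limma, and "rose", "fell", "higher" and "lower" mean an adjusted p under 0.05 over the 11648 genes. Between 32.4% and 41.5% of all probes were above background on an array. Several samples carried transcripts that their labels do not lead one to look for. Xist, transcribed from the inactive X chromosome, was at 10.72 and 10.44 in UUO kidneys and between 4.39 and 4.71 in healthy kidneys, and the Y-linked Eif2s3y was at background in all UUO samples and above it in all healthy ones, so sex and UUO cannot be told apart. Bleomycin lungs 1 and 2 had Eif2s3y (9.66 and 9.65), while bleomycin lung 3 had Xist (8.91) and no Eif2s3y above background. The liver transcript Apoa1 stood at 12.07 in UUO-mouse lung 1 and at 13.81 in healthy lung 3, and the kidney transcript Umod at 9.07 in bleomycin lung 1.

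Between healthy kidney and healthy lung, 121 members were higher and 53 lower in the kidney, 72.2% in all, where 66.6% of all genes passed. The split leaned to the kidney, with 50.2% of members higher against 29.8% of all genes and 22% lower against 36.9%. Members above background in kidney samples only numbered 30, and those in lung samples only 22. These passed the filter through 1 organ alone, which bears on their direction here. The same filter held for all genes. The median change of the members was 0.57 and that of all genes -0.14. Carriers of dicarboxylic acids, monocarboxylic acids and sulfate were higher in 9 of 12, mitochondrial carriers were higher in 24 of 34 and lower in 2, and carriers of hexoses and other sodium-coupled solutes were higher in 13 of 21 and lower in 4. The last of these classes, called the hexose class below, also holds lactate and pyruvate carriers of the SLC5 family. The exchangers of calcium stood the other way, with 1 of 5 higher and 4 lower. With the deposited matrix values the split was 152 higher and 37 lower. The healthy kidneys and the healthy lungs came from the same mice, which the main fit did not pair. With the mouse as a random block 121 were higher and 56 lower.

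Of 5 phosphate carriers 2 were higher and 1 lower in the kidney, where 29.8% of all genes were higher and 36.9% lower. Slc34a1, the sodium-phosphate cotransporter that reclaims phosphate in the proximal tubule, had levels of 15.08, 15.08 and 15 in healthy kidneys, against 6.51, 4.45 and 4.88 in healthy lungs. All kidneys stood far above all lungs (fitted difference 9.77 ± 0.73, adjusted p = 1.91e-07). Only 1 of the 3 healthy lungs was above background for Slc34a1, so that the size of this difference is not well measured. Slc34a2, its paralog of alveolar type 2 cells, was at 4.52, 4.49 and 4.81 in healthy kidneys, all at background, against 10.96, 10.80 and 10.46 in healthy lungs. It was at least 45-fold lower in the kidney (adjusted p = 1.78e-08), the reverse of Slc34a1. Slc34a3, a further renal phosphate cotransporter, was at least 20.9-fold higher in the kidney (adjusted p = 2.01e-07).

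The upstream sequences of Slc34a1 and Slc34a2 are shown because these paralogs were opposite in the organs. They are the 250 bases before the start of transcription, on the plus strand of GRCm38.p6 from RefSeq, at chr13:55399398-55399647 for Slc34a1 and chr5:53049103-53049352 for Slc34a2. Capitals mark the hexamer GTTAAT on either strand (ATTAAC on the other), an arm of the palindrome bound by HNF1 factors, which are transcription factors of the proximal tubule.
Slc34a1: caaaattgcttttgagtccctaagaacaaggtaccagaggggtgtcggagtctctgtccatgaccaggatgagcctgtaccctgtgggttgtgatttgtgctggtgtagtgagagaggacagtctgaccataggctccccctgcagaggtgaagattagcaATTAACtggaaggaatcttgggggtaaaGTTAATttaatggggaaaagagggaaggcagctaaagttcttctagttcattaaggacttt
Slc34a2: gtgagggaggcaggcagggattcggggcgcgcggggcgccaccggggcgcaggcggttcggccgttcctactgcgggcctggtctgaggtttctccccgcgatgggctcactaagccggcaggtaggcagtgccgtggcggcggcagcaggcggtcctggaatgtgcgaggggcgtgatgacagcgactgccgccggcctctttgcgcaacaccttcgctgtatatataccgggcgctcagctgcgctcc
The window of Slc34a1 holds the hexamer at 2 places, starting 89 and 61 bases before the start, and that of Slc34a2 at none. GC content is 46.4% in the window of Slc34a1 and 69.6% in that of Slc34a2, around a median of 52.4% over all promoters. Of 184 members with a RefSeq promoter, 10 (5.43%) hold the hexamer in this window, against 7.49% of 27025 genes in all. Among the members the share is 8.25% of 97 that were higher in kidney and 2.7% of 37 that were lower. A match of these letters is a description and no sign of binding, and the hexamer was picked with these sequences in view.

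Of 7 cation-chloride cotransporters 3 were higher and 2 lower in the kidney, where 29.8% of all genes were higher and 36.9% lower. Slc12a1, the sodium-potassium-chloride cotransporter of the thick ascending limb and target of loop diuretics, was at 12.80, 12.68 and 12.88 in healthy kidneys and at background, 4.41 to 4.53, in healthy lungs, at least 233-fold higher in the kidney (adjusted p = 3.02e-08). Slc12a3, the thiazide-sensitive cotransporter of the distal tubule, was higher by 2.37 ± 0.23, while Slc12a2, the basolateral cotransporter of secreting epithelia, was lower in the kidney (-1.74 ± 0.20). Slc9a3, the proximal sodium-proton exchanger, was at least 59.3-fold higher (adjusted p = 8.17e-10), and Slc4a4, which returns bicarbonate to the blood, by 4.44 ± 0.33. Slc26a4, pendrin, an anion exchanger of intercalated cells, was at 11.08, 10.82 and 10.70 in healthy kidneys, against 5.45, 6.70 and 5.69 in healthy lungs.

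Several carriers of organic solutes in the proximal tubule were higher in the kidney. The glucose cotransporter Slc5a2 (SGLT2, at least 33.1-fold higher), the lactate and pyruvate cotransporters Slc5a12 (at least 91.7-fold) and Slc5a8 (6.82 ± 0.53), and the neutral amino acid carrier Slc6a19 (at least 56.3-fold) were among them. Slc7a9, the cystine carrier mutated in cystinuria, was higher by 6.34 ± 0.28, the dicarboxylate carrier Slc13a3 by 6.28 ± 0.38, and the luminal organic anion carrier Slc17a3 by 6.51 ± 0.28 (adjusted p = 1.69e-09). Slc17a3 was above background in only 1 lung of any group, so that the size of its difference is not well measured. Both subunits of the basolateral steroid and bile acid transporter stood high together, Slc51a at least 162-fold and Slc51b at least 43.1-fold above lung. The kidney carried Slc47a1, the proton antiporter that excretes organic cations, at a level 5.13 ± 0.45 above that of the lung. The fatty acid carrier and acyl-CoA synthetase Slc27a2 was at 14.32, 14.34 and 14.39 in healthy kidneys, against 6.96, 6.99 and 11.59 in healthy lungs, where the highest value is that of the lung with liver transcripts. Its liver relative Slc27a5 was above background in that lung (9.54) and in UUO-mouse lung 1 (7.93) and at background in the other 12 samples, and Slc2a2 was at 8.02 in healthy lung 3, against 4.61 and 4.33 in healthy lungs 1 and 2. Of 11 liver markers 2 to 11 were above background in healthy lungs, with summed signals of 1563.95 to 104913, and their part in these levels was not tested. Without the 3 lungs that carried transcripts of another organ 118 members were higher and 57 lower in kidney.

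Of 42 amino acid carriers 17 were higher and 12 lower in the kidney, and the SLC6 family of amine and amino acid carriers had 7 of 12 higher and 2 lower. Over all genes 29.8% were higher and 36.9% lower. Among those lower in the kidney, Slc38a5, a glutamine and glycine carrier, was at 5.34, 5.32 and 4.90 in healthy kidneys and at 11.11, 11.09 and 11.11 in healthy lungs (-5.91 ± 0.26, adjusted p = 2.03e-09). Slc6a2, which takes up noradrenaline, was at background in all kidneys and between 9.23 and 9.25 in healthy lungs, at least 15.9-fold lower in the kidney. Slc7a10, a sodium-independent carrier of alanine, serine and cysteine, was at least 18.1-fold lower, and the glutamate carrier Slc1a3 was lower by 3.56 ± 0.26 on the log2 scale. The zinc importer Slc39a4 (-5.33 ± 0.40), the sulfated steroid carrier Slc10a6 (-4.60 ± 0.22), the sodium-calcium-potassium exchanger Slc24a3 (-3.36 ± 0.20) and the choline carrier Slc44a2 (-3.21 ± 0.15) were lower as well. In the heat map of the members that differed most, the injured samples kept the colour of their organ for most of these genes, and Slc17a3 in UUO kidney and Slc7a10 in bleomycin lung did not.

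**Figure D1:**
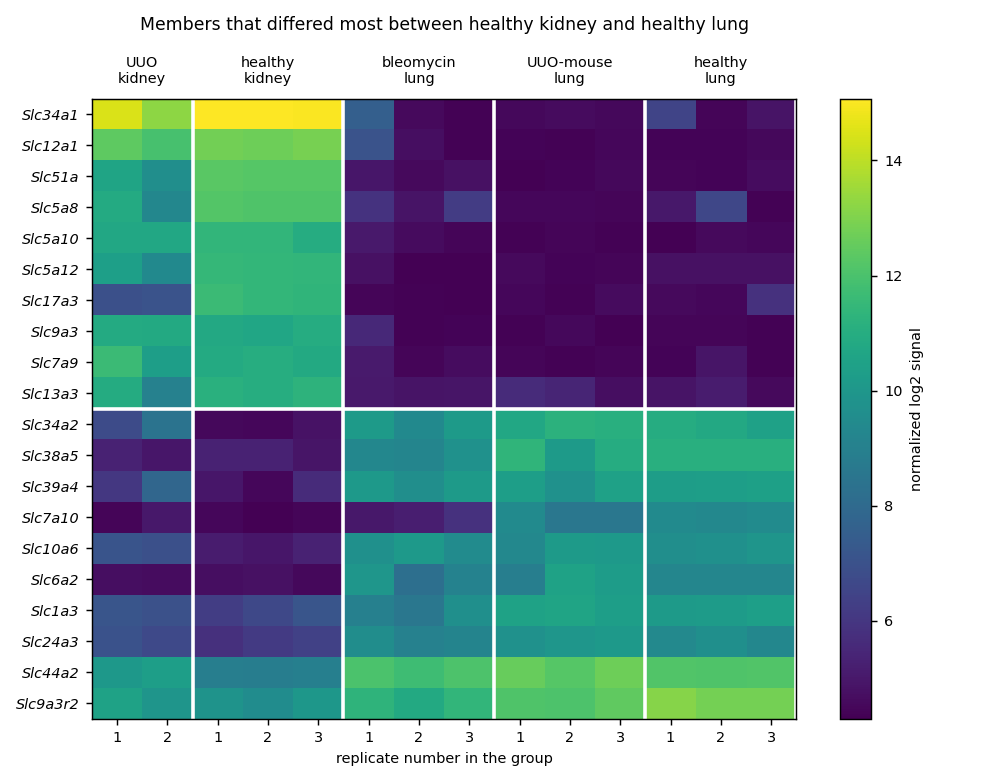
Heat map of normalized log2 signal (colour) of the 10 members highest in healthy kidney over healthy lung (upper block) and the 10 lowest (lower block) in every sample, columns being replicates of the 5 groups. Slc17a3 is at 6.94 and 7.05 in UUO kidneys and above 11 in healthy kidneys, and Slc7a10 is at 5.01 to 5.84 in bleomycin lungs and above 9 in healthy lungs.

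In the UUO kidney 43 members rose and 66 fell relative to healthy kidney (n = 2 against 3). That is 45.2% of the members, against 43% of all genes, and the direction differed from that of all genes, with 27.4% of members lower against 16.9% and 17.8% higher against 26%. The median change was -0.07 for members and 0.12 for all genes. Mitochondrial carriers fell in 14 of 34 and rose in 2, carriers of dicarboxylic acids, monocarboxylic acids and sulfate fell in 7 of 12 and rose in 1, and amino acid carriers fell in 11 of 42 and rose in 3. Metal ion carriers rose in 7 of 26 and fell in 4, and phosphate carriers rose in 3 of 5, or in 2 of 4 when a probe had to be above background throughout at least 1 group, a limit that Slc20a2 does not meet. The 2 kidneys were not alike, since without UUO kidney 2 the calls were 35 higher and 43 lower, mitochondrial carriers fell in 11, the carboxylate and sulfate class fell in 4, and the hexose class rose in none and fell in 2, in place of 6 and 7. Without UUO kidney 2, limma's unadjusted p was under 0.05 for 1 hexose carrier that was higher. Under median scaling of each array the split was 56 higher and 46 lower, and with the deposited matrix values 25 higher and 97 lower.

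The largest fitted fall was that of Slc17a3, a urate and organic anion carrier of the proximal tubule. It was at 6.94 and 7.05 in UUO kidneys, against 11.64, 11.42 and 11.36 in healthy kidneys (-4.48 ± 0.31, adjusted p = 1.35e-06). Both UUO kidneys lay more than 4 log2 units below every healthy one. Slc46a3, a lysosomal carrier, was at 7.84 and 7.51 in UUO kidneys and at 10.59, 10.50 and 10.52 in healthy kidneys (-2.86 ± 0.21, adjusted p = 1.64e-06). Slc9a8, a sodium-proton exchanger of the proximal tubule, was at background in both UUO kidneys and at 7.43 to 7.62 in healthy kidneys, at least 5.65-fold lower (adjusted p = 9.8e-07). Slc51a fell by 2.17 on the log2 scale (SE 0.23) and its partner subunit Slc51b by 0.87 (SE 0.18), and Slc10a5 of the bile acid family was at background in UUO kidneys and at least 2.82-fold lower. Fewer cells of a type and less RNA per cell cannot be told apart in these whole-organ samples.

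Single amino acid carriers moved in both directions. Slc7a13, a cystine and acidic amino acid carrier of the straight proximal tubule, was at background in UUO kidneys (4.64 and 4.76), against 7.29, 7.39 and 7.95 in healthy kidneys, at least 5.66-fold lower (adjusted p = 1.45e-06). Its relative Slc7a12 moved the opposite way, with 8.73 and 7.79 in UUO kidneys and 5.98, 5.49 and 6.28 in healthy kidneys (2.34 ± 0.26, adjusted p = 2.95e-05). Slc6a15, a carrier of branched-chain amino acids and proline, fell by 3.00 on the log2 scale (SE 0.27), and the neutral amino acid carrier Slc6a19 by 1.64 (SE 0.40). The lysosomal proton-coupled carrier Slc36a1 fell by 1.80 (SE 0.21). Slc38a2, a glutamine carrier, rose by 1.41 ± 0.24, and another probe of it had a change of the opposite sign. Slc7a9, with 11.63 and 10.35 in UUO kidneys and 10.89, 11.02 and 10.83 in healthy kidneys, did not pass on the probe used and had -0.81 (adjusted p = 0.0225) as the mean of its probes. Transcripts known to differ by sex in mouse kidney moved with these genes. Of 6 measured male-biased kidney genes 5 fell, with a summed signal of 4124.59 to 5048.19 in UUO kidneys and 56072.7 to 57261.6 in healthy kidneys. The female-biased Cyp4a14 was at 11.53 and 10.69 in UUO kidneys, against 7.18, 6.56 and 6.46 in healthy kidneys. Slc7a12 itself is known as female-biased, and sex and UUO cannot be told apart for any gene of this comparison.

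Among carriers of Krebs cycle acids, monocarboxylates and sulfate, most of those that passed fell. Slc16a4, a monocarboxylate carrier family member, was at 8.01 and 7.16 in UUO kidneys, against 10.27, 9.85 and 9.99 in healthy kidneys (-2.45 ± 0.23, adjusted p = 9.45e-06). Slc16a9 (-2.13 ± 0.43), the sulfate carrier Slc13a4 (-2.14 ± 0.34) and the dicarboxylate carriers Slc13a2 (-1.34 ± 0.47) and Slc13a3 (-1.15 ± 0.43) fell too, although Slc13a2 lost its call in 9 and Slc13a3 in 8 of 19 other settings. Slc13a1, the sodium-sulfate cotransporter of the proximal tubule, rose instead, with 10.73 and 10.39 in UUO kidneys and 8.68, 8.38 and 8.33 in healthy kidneys (2.10 ± 0.22, adjusted p = 1.94e-05). Both UUO kidneys lay above all healthy ones for Slc13a1 and below all for Slc16a4.

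Among the mitochondrial carriers, Slc25a48 was at 6.47 and 5.98 in UUO kidneys, against 9, 9.10 and 8.75 in healthy kidneys (-2.73 ± 0.19, adjusted p = 1.37e-06). The ornithine carrier Slc25a15 of the urea cycle (-1.61 ± 0.53), the coenzyme A carrier Slc25a42 (-1.16 ± 0.28), the dicarboxylate carrier Slc25a10 (-1.17), the glutathione carrier Slc25a39 (-1.04 ± 0.24) and the oxoglutarate-malate carrier Slc25a11 (-0.84) were others that fell. Slc25a5, the ADP/ATP carrier, had 13.55 and 13.36 in UUO kidneys, against 13.79, 13.50 and 13.73 in healthy kidneys, and did not pass. The risers were Slc25a24, an ATP-magnesium and phosphate carrier (1.54 ± 0.25), and Slc25a17 (0.69 ± 0.19). Slc25a17 is peroxisomal and is counted here because the class is the whole SLC25 family. Markers of the proximal tubule, a cell type dense in mitochondria, fell in 7 of 11, with summed signals of 24750.4 to 45327.3 in UUO kidneys and 88591.8 to 94696.5 in healthy kidneys. Their part in the falls of carriers was not tested.

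The facilitative SLC2 family had 4 of 9 members that rose and 1 that fell, where 26% of all genes rose and 16.9% fell. The sodium-coupled glucose carrier Slc5a2 (-1.62 ± 0.42) and the lactate and pyruvate carriers Slc5a12 (-1.55 ± 0.23) and Slc5a8 (-2.06 ± 0.60) fell, while the glucose carriers Slc2a1 (1.11 ± 0.30), Slc2a3 (1.76 ± 0.52) and Slc2a6 (2.26 ± 0.53) rose. Slc2a1, the widely used GLUT1, was at 10.59 and 11.93 in UUO kidneys, against 10.11, 10.11 and 10.24 in healthy kidneys. Slc2a3, the high-affinity GLUT3, was at 6.31 and 8.60 in UUO kidneys, against 5.82, 5.89 and 5.40 in healthy kidneys. Both rises came mostly from UUO kidney 2, and without it no hexose carrier rose. Slc5a1, the cotransporter SGLT1 of the late proximal tubule, had 8.29 and 8.29 in UUO kidneys and 7.62, 7.62 and 7.86 in healthy kidneys without passing. The basolateral GLUT2, Slc2a2, at 9.63 and 8.05 in UUO kidneys and 10.27, 10.19 and 9.64 in healthy kidneys, did not pass, and neither did the organic cation antiporter Slc47a1, with 13.30 and 12.52 in UUO kidneys and 14.28, 14.13 and 14.10 in healthy kidneys.

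The largest fitted rise in the UUO kidney was that of Slc15a3, a lysosomal carrier of histidine and dipeptides in phagocytes. Its levels were 8.11 and 8.91 in UUO kidneys, against 4.80, 5.08 and 4.70 in healthy kidneys, all at background, at least 9.59-fold higher (adjusted p = 5.35e-06). Slc11a1, the metal carrier of the macrophage phagosome, was at 9.71 and 10.48 in UUO kidneys and at 8.55, 8.55 and 8.31 in healthy kidneys (1.62 ± 0.26, adjusted p = 0.000411). The sugar phosphate carrier Slc37a2 was at least 1.73-fold higher and the iron exporter Slc40a1 rose by 0.94 ± 0.28. Macrophage markers rose in 11 of 12, with a summed signal of 19781.2 to 23482.3 in UUO kidneys and 2373.05 to 3112.16 in healthy kidneys. Their part in these rises was not tested.

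Some carriers that are higher in healthy lung than in healthy kidney rose in the UUO kidney. Slc34a2 was at 6.77 and 8.41 in UUO kidneys and at background, 4.49 to 4.81, in healthy kidneys, at least 5.08-fold higher (adjusted p = 8.49e-05). Slc39a4, at 6.05 and 7.86 in UUO kidneys and 4.97, 4.48 and 5.63 in healthy kidneys, rose by 1.93 ± 0.45, and Slc10a6 by 1.87 ± 0.25. Lung surfactant transcripts were present in the same kidneys, Sftpc at 9.11 and 7.63 in UUO kidneys against 4.36 to 4.56 in healthy kidneys, and Sftpd at 9.41 and 8.65 against 4.41 to 4.47. Of 8 alveolar type 2 markers 4 to 5 were above background in UUO kidneys and 2 in healthy kidneys, 3 rose, and their summed signal was 32289.5 to 36660.5 in UUO kidneys and 36848.4 to 38947.2 in healthy kidneys. Sftpb stood at 4.82 and 5.27 in UUO kidneys, against 4.51 to 4.69 in healthy kidneys. UUO kidney 1 had the higher Sftpc and UUO kidney 2 the higher Slc34a2, and the part of these markers in the rises was not tested. The widely expressed phosphate carriers Slc20a1 (at least 2.12-fold) and Slc20a2 (at least 1.16-fold, above background in 1 of 2 UUO kidneys) were higher as well, while Slc34a1 had 14.46 and 13.25 in UUO kidneys, against 15 to 15.08 in healthy kidneys, and did not pass.

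**Figure D2:**
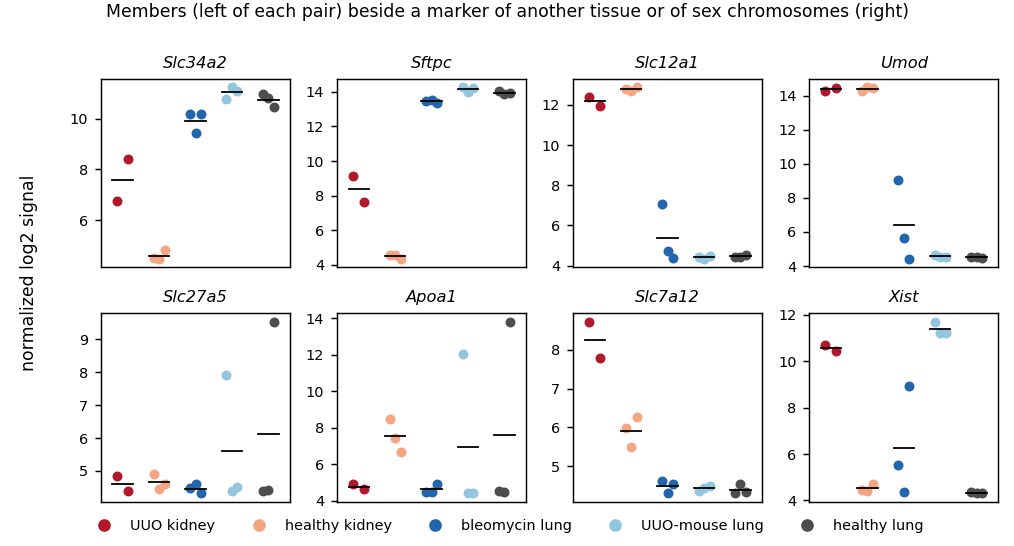
Normalized log2 signal of 4 members, each left of a transcript of another tissue or of the inactive X chromosome, with a point per sample and a line at the group mean. Sftpc is above 7 in both UUO kidneys, Umod is at 9.07 in bleomycin lung 1, Apoa1 is above 12 in UUO-mouse lung 1 and healthy lung 3, and Xist is high in UUO samples and bleomycin lung 3.

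The salt carriers named above for the thick limb and distal tubule did not pass in the UUO kidney. Slc12a1 was at 12.40 and 11.96 in UUO kidneys, against 12.80, 12.68 and 12.88 in healthy kidneys, and Slc12a3 at 11.65 and 10.64 in UUO kidneys, against 10.61, 10.76 and 10.81 in healthy kidneys. Slc9a3 (10.91 and 10.84 in UUO kidneys, 10.80, 10.69 and 10.95 in healthy kidneys) and Slc26a4 (11.08 and 10.58 in UUO kidneys, 11.08, 10.82 and 10.70 in healthy kidneys) overlapped between the groups. Slc14a2, the urea transporter of the inner medulla, was at 6.97 and 10.12 in UUO kidneys, against 7.39, 7.20 and 8.06 in healthy kidneys. The UUO kidneys thus lay on both sides of the healthy ones for Slc14a2.

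**Figure D3:**
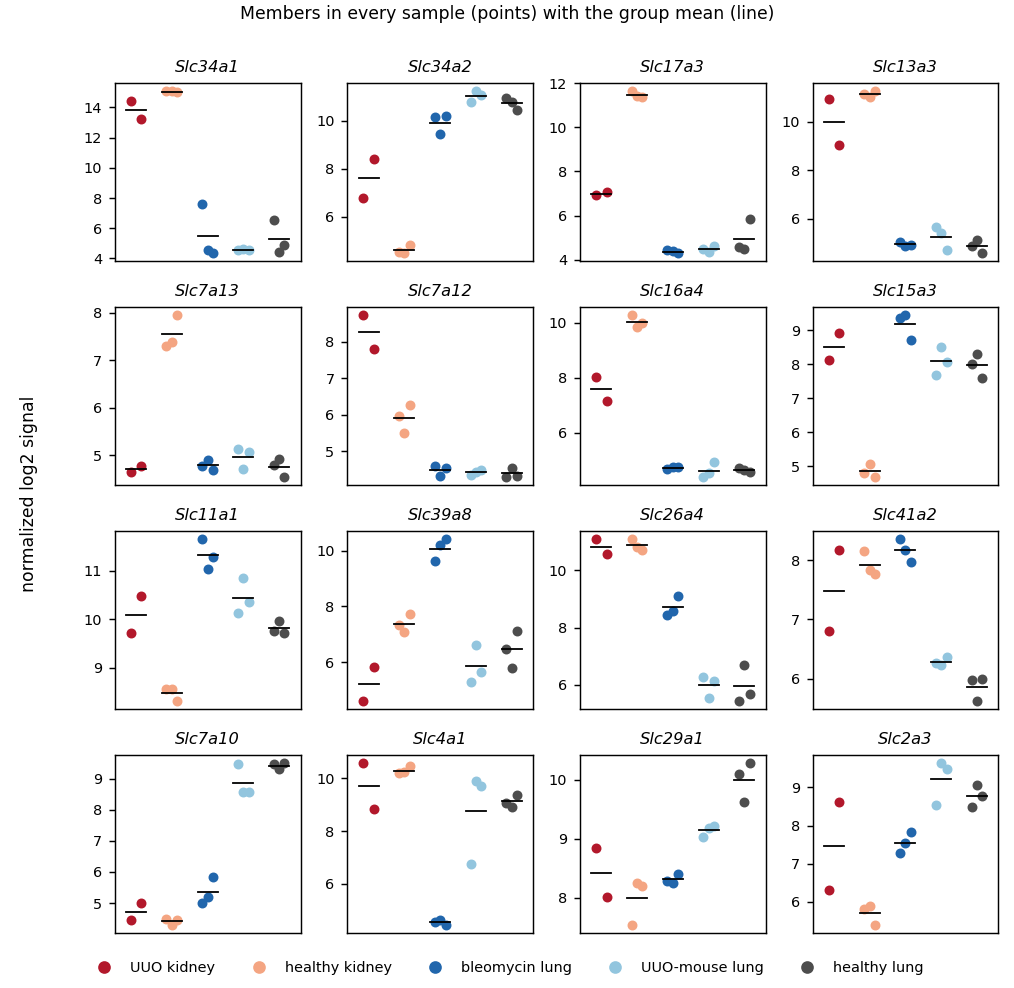
Normalized log2 signal of 16 members, with a point per sample and a line at the group mean, groups running from UUO kidney (left) to healthy lung (right) on axes that differ by gene. Slc17a3 and Slc7a13 are lower and Slc15a3 and Slc34a2 higher in UUO kidney than in healthy kidney, and Slc39a8, Slc26a4 and Slc41a2 are higher and Slc4a1 and Slc7a10 lower in bleomycin lung than in healthy lung.

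In the bleomycin lung 44 members rose and 38 fell relative to healthy lung (n = 3 each). That is 34% of members, below the 43.1% of all genes, with 18.3% higher against 21.3% and 15.8% lower against 21.8%. The members include 30 that were above background in no lung, which bears on these shares. The matching number over all genes was not counted. The median change was 0.03 for members and -0.04 for all genes. Metal ion carriers rose in 9 of 26 and fell in 4, nucleotide sugar and sugar phosphate carriers rose in 8 of 25 and fell in 3, amino acid carriers rose in 7 of 42 and fell in 10, and mitochondrial carriers rose in 5 of 34 and fell in 8. The direction depends on scaling: with each array scaled to its median, 67 rose and 22 fell, and with the deposited matrix values 108 rose and 15 fell, while the median of all genes stood at 0.24 and 0.51 in place of -0.04. Without the 3 lungs that carried transcripts of another organ 35 rose and 34 fell, and 63 of the 82 calls held. The bleomycin arrays had mean raw signals of 508.5 to 527.2, against 362.7 to 390.4 for healthy lung, and this cannot be told apart from bleomycin.

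The zinc importer family SLC39 had 3 of 12 members that rose and 2 that fell, where 21.3% of all genes rose and 21.8% fell. Slc39a8, an importer of zinc and manganese, was at 9.63, 10.19 and 10.42 in bleomycin lungs, against 6.45, 5.80 and 7.12 in healthy lungs. Every bleomycin lung lay at least 2 log2 units above every healthy lung, and the change of 3.62 ± 0.42 (12.3-fold, adjusted p = 6.31e-05) was the largest fitted rise of a member. Slc41a2, a magnesium carrier, was at 8.35, 8.17 and 7.97 in bleomycin lungs and at 5.98, 5.63 and 5.99 in healthy lungs (2.30 ± 0.27, adjusted p = 6.98e-05). The Golgi zinc carrier Slc30a7 (1.60 ± 0.21), the zinc carrier Slc39a11 (1.52 ± 0.15), the phagosomal Slc11a1 (1.51 ± 0.23) and the zinc exporter Slc30a1 (1.05) rose too. Slc30a9, a zinc carrier family member, fell (adjusted p = 0.000138) and was above background in no bleomycin lung (4.76 to 5.18), against 6.07 to 6.75 in healthy lungs, and the iron importer Slc11a2 fell by 1.21 (SE 0.32), although another probe of Slc11a2 had a change of the opposite sign.

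Slc26a4, pendrin, an exchanger of chloride, bicarbonate and iodide in airway epithelium, was at 8.44, 8.58 and 9.11 in bleomycin lungs, against 5.45, 6.70 and 5.69 in healthy lungs (2.76 ± 0.32, 6.78-fold, adjusted p = 5.78e-05). Slc26a4 is also a kidney gene, and the lungs differed in kidney transcripts. Umod was at 9.07, 5.65 and 4.44 in bleomycin lungs, against 4.52, 4.51 and 4.49 in healthy lungs, and bleomycin lung 1 also held Slc12a1 (7.05), Slc34a1 (7.58) and Slc9a3 (5.56). Of 9 kidney markers other than members 4 to 7 were above background in bleomycin lungs, with a summed signal of 599 to 2028.92, against 3 to 5 and 1130.26 to 4412.01 in healthy lungs. The 7 markers and the sum of 2028.92 belong to bleomycin lung 1. The sum of 4412.01 is that of healthy lung 3, which held liver transcripts and had 3 kidney markers above background. Healthy lungs 1 and 2 had sums of 1167.09 and 1130.26. Slc26a4 kept its call in all 20 other settings, among them those without bleomycin lung 1. These settings do not measure the part of kidney transcripts in the level of Slc26a4, which was not tested. The glucose carrier Slc2a1, with 10.47, 10.26 and 10.41 in bleomycin lungs and 9.03, 9.16 and 8.58 in healthy lungs, rose by 1.46 ± 0.27.

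The class of organic ion efflux, vesicular and lysosomal organic anion carriers had 1 of 8 that fell in the bleomycin lung, where 21.8% of all genes fell. Single members known from lysosomes or phagocytes rose. Slc37a2 was at 7.78, 6.57 and 7.35 in bleomycin lungs, against 5.15, 5.45 and 5.03 in healthy lungs (2.03 ± 0.31, adjusted p = 0.000307). The lysosomal peptide carriers Slc15a3 (1.20 ± 0.28) and Slc15a4 (0.90 ± 0.26) both rose. Of 12 macrophage markers 9 rose, while their summed signal, 45449 to 69107.2 under bleomycin and 47629 to 50171.9 in healthy lungs, overlapped. Their part in these rises was not tested. The amino acid carriers Slc7a8 (1.58 ± 0.35) and Slc36a1 (1.16 ± 0.19) rose, and the cystine-glutamate exchanger Slc7a11, which supplies cystine for glutathione, was at 7.07, 7.26 and 6.28 in bleomycin lungs and 5.33, 5.14 and 4.93 in healthy lungs (1.74 ± 0.53, adjusted p = 0.0191), a call lost in 3 of 20 other settings. Slc16a6 (1.75 ± 0.34), Slc35e1 (1.58 ± 0.15) and Slc23a3 of the vitamin C carrier family (1.96 ± 0.28) were further rises.

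Slc4a1, band 3, the chloride-bicarbonate exchanger of red cells and intercalated cells, had the largest fitted fall. It was at background in all bleomycin lungs (4.57, 4.65 and 4.46), against 9.08, 8.92 and 9.36 in healthy lungs, at least 19.4-fold lower (adjusted p = 0.000238). Slc25a37, the mitochondrial iron importer of red cell precursors, was at 8.13, 7.83 and 7.46 in bleomycin lungs and at 9.26, 9.41 and 9.36 in healthy lungs (-1.54 ± 0.22). All 5 measured red cell markers fell, with summed signals of 1911.8 to 3344.82 in bleomycin lungs, against 88147.8 to 89575.1 in healthy lungs, and the globin transcript Hba-a1 stood at 10.14, 9.31 and 9.52 after bleomycin, against 14.78 to 14.92 without it. Their part in the falls of Slc4a1 and Slc25a37 was not tested.

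Slc7a10 fell by 4.07 on the log2 scale (SE 0.26, 16.8-fold, adjusted p = 1.71e-06). It was at 5.01, 5.21 and 5.84 in bleomycin lungs, against 9.46, 9.32 and 9.50 in healthy lungs, with more than 3 log2 units between the groups. Other carriers high in the healthy lung fell by less. Slc38a5 fell by 1.68 (SE 0.26), Slc1a3 by 1.17 (SE 0.26) and the serotonin carrier Slc6a4 by 1.19 (SE 0.26), and the noradrenaline carrier Slc6a2, with 9.97, 8.24 and 9.08 in bleomycin lungs, against 9.23 to 9.25 in healthy lungs, overlapped. Slc34a2 had 10.17, 9.43 and 10.18 in bleomycin lungs, against 10.96, 10.80 and 10.46 in healthy lungs, without passing. The equilibrative nucleoside carrier Slc29a1 was at 8.29, 8.25 and 8.41 in bleomycin lungs, against 10.10, 9.62 and 10.28 in healthy lungs (-1.68 ± 0.24), and the purine base carrier Slc43a3 fell by 1.63 (SE 0.27). Another probe of Slc29a1 had a change of the opposite sign, as did another probe of Slc9a3r2 (-1.74 ± 0.20), which encodes a scaffold of sodium-proton exchangers. Endothelial markers fell in 7 of 9, with summed signals of 16729 to 18368.9 in bleomycin lungs, against 31241.6 to 34429 in healthy lungs, and their part in these falls was not tested.

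**Figure D4:**
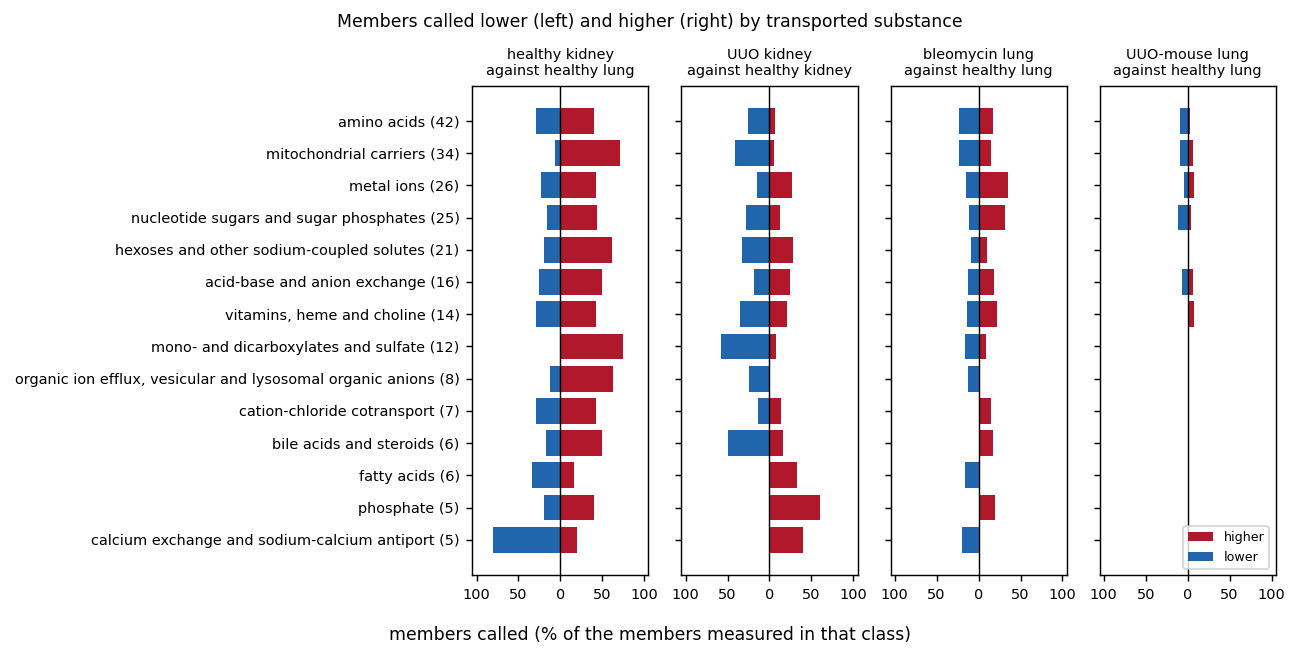
Share of the measured members (in brackets) of each functional class called lower (bars to the left) and higher (bars to the right) in 4 comparisons, for classes of at least 5 members. Mitochondrial carriers were higher in 24 of 34 in healthy kidney and fell in 14 of 34 in UUO kidney, and metal ion carriers rose in 9 of 26 in bleomycin lung.

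In the lung of UUO mice, whose injury was in the kidney, 8 members rose and 15 fell relative to healthy lung (n = 3 each). That is 9.54% of members, against 10.9% of all genes, with 3.32% higher against 5.81% and 6.22% lower against 5.05%. Here too 30 of the members were above background in no lung. Slc23a3 was at 7.69, 8.24 and 7.37 in UUO-mouse lungs, against 6.09, 6.68 and 6.67 in healthy lungs (1.29 ± 0.28, adjusted p = 0.0173). The peroxisomal Slc25a17 rose by 0.91 ± 0.17 (adjusted p = 0.00981). The Golgi carrier of CMP-sialic acid, Slc35a1, was at 5.25, 5.40 and 4.52 in UUO-mouse lungs, against 6.36, 5.91 and 6.65 in healthy lungs (-1.25 ± 0.28, adjusted p = 0.0171), and the mitochondrial Slc25a30 fell by as much (-1.25 ± 0.31). Slc43a3 (-1.13 ± 0.27) and Slc29a1 (-0.86 ± 0.24) fell, as they did in the bleomycin lung, which was set against the same healthy lungs. None of the 23 calls held in every other setting. Leaving out any 1 of the 6 lungs left between 4 and 10 that rose and between 2 and 7 that fell. Without the 3 lungs that held transcripts of another organ, limma called 0 members higher and 2 lower, with 23 and 21 at an unadjusted p under 0.05. With each array scaled to its median it called 0 higher and 28 lower, with 7 and 55 unadjusted. Xist was at 11.24 to 11.70 in UUO-mouse lungs, against 4.31 to 4.36 in healthy lungs, so sex and UUO cannot be told apart in the lung either.

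The effect of bleomycin on the lung minus that of UUO on the kidney was tested directly, in a design in which the 2 comparisons share no sample although 3 healthy mice gave both organs. The bleomycin effect was the higher for 62 members and the lower for 42, 43.2% of members against 45% of all genes. By direction that is 25.7% of members against 17.9% of all genes, and 17.4% against 27.1%. Of the members, 30 were above background in kidney samples only and 22 in lung samples only. Their effect in the other organ was not measured, which bears on the direction of this split. Without the 3 lungs that held transcripts of another organ the split was 49 and 46, and the deposited matrix values gave 131 and 15. Among the mitochondrial carriers the bleomycin effect was the higher in 12 of 34 and the lower in 3. Slc39a8 had the largest fitted difference. It rose by 3.62 in the bleomycin lung and in the UUO kidney stood at 4.61 and 5.82, against 7.32, 7.10 and 7.72 in healthy kidneys (-2.16 ± 0.47), a difference of 5.78 ± 0.63 (adjusted p = 3.44e-05). Slc36a1, Slc39a11 and Slc30a2, a zinc carrier of secretory vesicles, likewise rose in bleomycin lung and fell in UUO kidney, with differences of 2.96 ± 0.28, 2.58 ± 0.22 and 2.87 ± 0.25. The fatty acid transport protein Slc27a3 did the reverse (-2.48 ± 0.54).

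By direction of the separate calls, 9 members rose in both injured organs, 20.9% of the risers in UUO kidney and 20.5% of those in bleomycin lung, near the 18.3% of all members that rose in bleomycin lung and the 17.8% that rose in UUO kidney. They were, besides Slc20a2 with 1 sample above background in each injured organ, Slc11a1, Slc15a3, Slc25a17, Slc2a1, Slc35e4, Slc37a2, Slc41a3 and Slc4a8. A further 11 fell in both, 16.7% of those that fell in UUO kidney and 28.9% of those in bleomycin lung. These shares are near the 15.8% and 27.4% of all members that fell in bleomycin lung and in UUO kidney. Mitochondrial carriers made up 6 of the 11: Slc25a10, Slc25a34, Slc25a35, Slc25a39, Slc25a42 and Slc25a45. Of all 241 members 34 were mitochondrial carriers, of which 14 fell in UUO kidney and 8 in bleomycin lung. Slc13a4, with 6.74 and 5.57 in UUO kidneys against 8.56, 8.38 and 7.95 in healthy kidneys, and 6.67, 6.20 and 5.90 in bleomycin lungs against 8.50, 8.35 and 8.53 in healthy lungs, fell by about the same amount in each (-2.14 ± 0.34 and -2.20 ± 0.30). In 6 members a fall in the UUO kidney went with a rise in the bleomycin lung, and in 4 the reverse. These overlaps were counted among the members only and not over all genes.

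**Figure D5:**
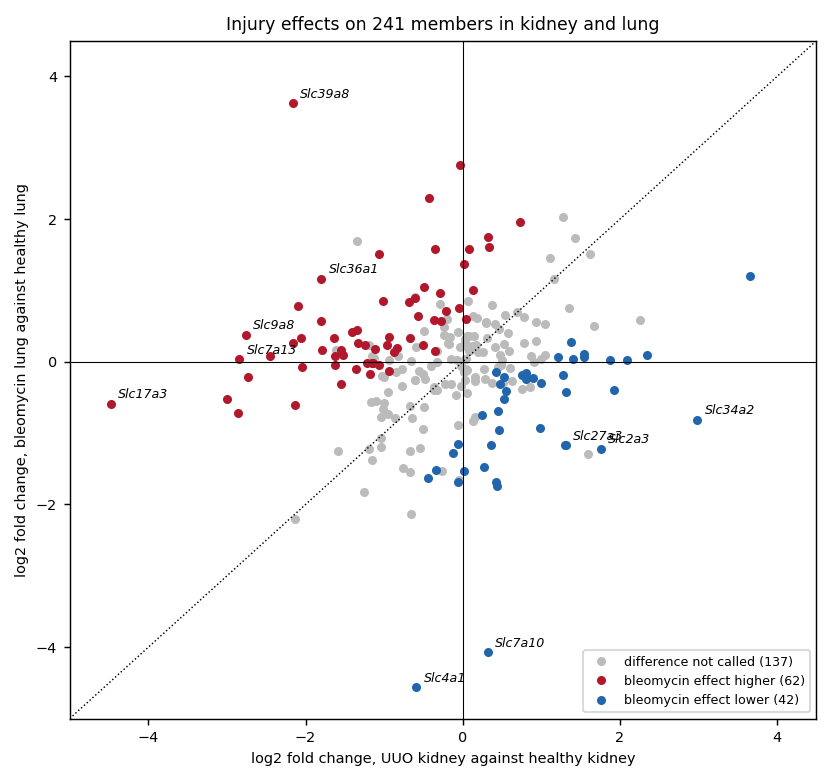
Log2 fold change of the 241 members in UUO kidney against healthy kidney (horizontal) and in bleomycin lung against healthy lung (vertical), coloured by the test of the difference between the effects, with the dotted line where the effects are equal. Slc39a8 lies top left, at a fall in kidney and a rise in lung, and Slc4a1 and Slc7a10 lie at the bottom.

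Other transport genes were counted as lists beside the carriers, to be read against the 26% of all genes that rose and 16.9% that fell in UUO kidney, and the 21.3% and 21.8% in bleomycin lung. Between the healthy organs the shares were 29.8% higher and 36.9% lower in kidney. Of 10 aquaporins, water channels, 5 fell and 1 rose in the UUO kidney, and 6 were higher and 2 lower in healthy kidney than in healthy lung. The fallers included Aqp2 (-1.39), the vasopressin-regulated channel of the collecting duct, and Aqp11 (-2.42). The FXYD regulators of the sodium pump rose in both organs for Fxyd5 (2.56 in UUO kidney, 1.58 in bleomycin lung) and Fxyd6 (2.18 and 1.79). In the list of sodium pump subunits and regulators 4 of 8 rose and 1 fell in UUO kidney, and 5 rose and 2 fell in bleomycin lung. Of 7 SLCO organic anion carriers 1 rose and 2 fell in the UUO kidney, and of 8 ABC efflux transporters 3 rose and 1 fell, among them Abcc3 with 8.80 on average in UUO kidneys and 4.86 in healthy kidneys. Among 17 partner and regulator genes 3 rose and 3 fell in the UUO kidney, with Cltrn, the collectrin that brings Slc6a19 to the membrane, at -1.51 (adjusted p = 0.0159). Of 10 renal ion channel and proton pump genes 3 rose and 1 fell.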

How the data were processed

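Total RNA from 14 organs of BALB/c mice was measured on 15 Illumina arrays, with biotinylated cRNA, per the labels' protocols. The deposited table holds a raw probe intensity and a detection p-value per array, exported by the authors with GenomeStudio 5.0 per the submitters' processing notes. The deposited series matrix holds linear intensity values that are background-subtracted, with a rank correlation to the raw signals of at least 0.999992; their scaling is unknown here, and 47.73% lie under the floor of 16 set before taking log2. Probe names came from the platform annotation: of 45281 probes 34885 had 1 symbol, 18 several and 10378 none. Intensities were corrected with neqc in limma 3.58.1 (R 4.3.3; negative controls inferred from the deposited p-values, offset 16), quantile normalized and put on the log2 scale, and the 21048 probes above background (detection p under 0.01) in 2 or more samples were kept. Each gene was given its probe with the highest mean signal, which gave 11648 genes. For 2 members, Slc12a3 and Slc27a5, the raw signal would have picked another probe.

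Group means over all 5 groups were fitted with lmFit and eBayes (degrees of freedom: 9 residual, 3.06 prior), and every adjusted p is limma's, Benjamini-Hochberg over all genes, called under 0.05. The script was tested on simulated data. Per comparison, the members named were the 10 largest rises and falls among those called with no overlap, up to 2 rises and 2 falls per class of carrier, and a list of transporters always named. Lack of overlap in the largest rises and falls was thus a condition of naming and is no further support. The members, classes and lists were chosen with earlier results of these data known. The number of arrays limits the precision, and p-values measure the spread between the mice of a group. Organs of the same mouse were fitted as independent samples. Replicate numbers do not mark mice across groups, since by the labels some mice carry the same number for both organs and others do not. The correlation of deviations was -0.122 to 0.185 for the 4 pairs of organs from 1 mouse. Alternatives were another background correction, scaling, filter or choice of probes, the deposited matrix, blocks and samples left out. Promoters are RefSeq's for GRCm38.p6, and all 241 members matched RefSeq by Entrez ID.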

Additional observations from a re-analysis of the deposited data

Results flagged for a closer look

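The effect of bleomycin on the lung differed from that of UUO on the kidney in limma's test of the difference for 104 members, being the higher for 62 and the lower for 42. The sides differ in organ and injury at once, and in the sex-linked transcripts of the UUO mice. The fitted log2 differences below are no ranking, since several have a side at or near background, where the size is not measured. Among the members with the largest fitted differences, the bleomycin effect was the higher for Slc39a8 (5.78), Slc17a3 (3.89), Slc9a8 (3.14), Slc36a1 (2.96) and Slc7a13 (2.88). Of these, Slc7a13 was above background in no lung and Slc17a3 in 1 lung, and Slc39a8 and Slc36a1 passed in opposite directions in the organs. The bleomycin effect was the lower for Slc7a10 (-4.39), Slc4a1 (-3.97), Slc34a2 (-3.80), Slc2a3 (-2.97) and Slc27a3 (-2.48). Slc7a10 was above background in no kidney, Slc34a2 in no healthy kidney, Slc4a1 in no bleomycin lung and Slc9a8 in no UUO kidney, and Slc2a3 and Slc34a2 were higher in UUO kidney 2 than in UUO kidney 1. Slc4a1 moved with the red cell markers in the bleomycin lung, whose part in the difference was not tested.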

How the results depend on the processing

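Counts are of members higher and lower. The deposited matrix gave 25 and 97 for UUO kidney, 108 and 15 for bleomycin lung, 4 and 25 for UUO-mouse lung and 131 and 15 for the difference of effects; scaling each array to its median gave 67 and 22 for bleomycin lung and 0 and 28 for UUO-mouse lung. For UUO-mouse lung, fitting only the groups compared gave 9 lower, and leaving out the 3 lungs with transcripts of another organ gave 0 and 2. The causes were not tested. The median of all genes shifted to 0.324 (kidney against lung), -0.206 (UUO kidney), 0.509 (bleomycin lung), -0.108 (UUO-mouse lung) and 0.734 (difference) with the matrix, and to -0.299, 0.329, 0.235, -0.255 and -0.111 under median scaling. Leaving out 1 sample gave 112 to 119 and 49 to 54 for kidney against lung, 33 to 38 and 43 to 67 for UUO kidney, 37 to 43 and 29 to 38 for bleomycin lung, 4 to 10 and 2 to 7 for UUO-mouse lung, and 48 to 70 and 35 to 44 for the difference; a lone UUO kidney is assumed to vary like the other groups. Of the calls, 141 of 174, 50 of 109, 39 of 82, 0 of 23 and 52 of 104 held in every setting. With the replicate number as a block the counts were 122 and 53, 42 and 59, 41 and 38, 6 and 12, and 60 and 40. By the labels a shared number stands for the same mouse in some pairs of organs and not in others. Same-numbered samples of different mice correlated between -0.565 and 0.169. With the mouse as a random block (within-animal correlation 0.0788) the counts were 121 and 56, 43 and 66, 43 and 38, 8 and 14, and 65 and 43. The sign turned for Slc7a9 in UUO kidney (-0.81), Slc25a3 in UUO-mouse lung (0.013) and, in the difference, Slc2a2 (1.87), Slc44a2 (0.49) and Slc47a1 (1.25) with the mean of a gene's probes; for Slc50a1 in bleomycin lung (0.045) and, in the difference, Slc12a2 (0.21), Slc4a1ap (0.24) and Slc66a2 (0.14) with the matrix; and for Slc7a11 in the difference without UUO kidney 1 (-1.13, against 1.75 without UUO kidney 2). Other probes of called members had the same sign in 96.3%, 77.8%, 76.5%, 81.8% and 69.2%. Normalization within each organ was not run for kidney against lung. Members near background have folds that are bounds, and groups of 2 or 3 leave small changes undetected.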
